A study of Mus musculus with 11 samples.

Results

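AP-1 (activator protein 1) transcription factor genes were described in the postnatal day 10 mouse retina, by cell class and by condition. The 8 genes were Fos, Fosb, Fosl2, Jun, Junb, Jund, Atf3 and Maff, of 25311 genes in the table. They were chosen by gene name, with results of the comparison between Phase I ROP and control retinas already known, so their values in that comparison are a description with no test. All 8 were in the table. Retinas of C57BL/6J mice had been dissociated with papain and their cells counted by inDrop, a droplet method that tags single RNA molecules with a unique molecular identifier (UMI). There were 4 groups, 11 mice in all. Control mice (n = 3) were given PBS, and Phase I ROP mice (n = 3) were their littermates given streptozotocin (STZ), a toxin of the insulin-producing β cell that makes the pups hyperglycemic and serves as a model of the first, vessel-poor phase of retinopathy of prematurity (ROP). The other mice, also given STZ, were littermates split between dams fed a diet enriched in ω-3 fatty acids (n = 2) or ω-6 fatty acids (n = 3). No mouse without STZ was on either diet, so a diet effect here is always one in hyperglycemic pups. Each library is one mouse.

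AP-1 is a pair of proteins held together by a leucine zipper, usually one of the FOS family and one of the JUN family, that binds DNA at TGACTCA and close relatives of it. Fos, Fosb, Jun, Junb and Atf3 are immediate early genes. In most resting cells they are nearly silent, and calcium, growth factors, depolarization, heat or injury switch them on within minutes, without new protein synthesis. FOS proteins cannot pair with each other, JUN proteins can. FOSL2 is a FOS relative that usually comes later, JUND is a JUN protein present in many resting cells, ATF3 is a stress-induced partner of JUN proteins, and MAFF is a small MAF protein without an activation domain of its own. In the retina Müller glia, the radial support cells, are known to switch on these genes after injury. Enzymatic dissociation of tissue is also known to switch on the same genes.

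Stretches of the promoters are shown for the genes that held one of the elements marked below. The part of these elements in the levels of the genes was not tested. The 120 bases upstream of the RefSeq start are given 5′ to 3′ on the gene's strand in build GRCm38.p6. Capitals mark TGACG, the core of the element that CREB and ATF proteins bind, its full form TGACGTCA, or TGACATCA, a variant read by JUN and ATF proteins, on either strand.
Fos, chr12:85473770-85473889, plus strand: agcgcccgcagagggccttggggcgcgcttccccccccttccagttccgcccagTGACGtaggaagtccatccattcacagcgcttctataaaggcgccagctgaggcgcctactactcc
Fosb, chr7:19310046-19310165, minus strand: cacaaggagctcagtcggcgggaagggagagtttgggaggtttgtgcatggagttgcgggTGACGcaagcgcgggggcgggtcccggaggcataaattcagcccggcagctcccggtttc
Junb, chr8:84978749-84978868, minus strand: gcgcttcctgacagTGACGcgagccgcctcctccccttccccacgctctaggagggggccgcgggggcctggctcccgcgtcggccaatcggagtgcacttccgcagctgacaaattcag
Atf3, chr1:191183334-191183453, minus strand: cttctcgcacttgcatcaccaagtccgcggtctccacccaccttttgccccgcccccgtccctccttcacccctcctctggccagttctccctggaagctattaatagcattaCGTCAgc
Maff, chr15:79347400-79347519, plus strand: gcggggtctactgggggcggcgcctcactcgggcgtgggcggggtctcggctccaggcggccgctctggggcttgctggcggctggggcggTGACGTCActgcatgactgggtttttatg
Jun, chr4:95052223-95052342, minus strand: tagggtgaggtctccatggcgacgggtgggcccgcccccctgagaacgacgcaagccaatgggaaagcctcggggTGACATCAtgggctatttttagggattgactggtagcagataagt
The 8 genes have 10 promoters in RefSeq, since a gene can have several starts, and a gene is counted here if any of its promoters holds the letters. In the 250 bases upstream, TGACG on either strand was found for 5 of the 8 genes (Fos, Fosb, Junb, Atf3, Maff), and for 19.8% of 27025 genes or 17.8% of their 32851 promoters. The full TGACGTCA, which contains TGACG, was found for Maff alone and for 1.77% of genes. TGACATCA was found for Jun and, upstream of a start other than the one printed, for Maff, and for 3.41% of genes. Fosl2 and Jund had none of these letters in that window. TGACTCA itself was found for none of the 8 and for 5.16% of genes, and TATAAA for Fos alone and for 14.3%. In the same window the CArG box, the element that serum response factor binds, was found for none of the 8 and for 1.62% of genes. Bases farther upstream were not searched, so no lack of the element in these promoters is read from this. In the GENCODE annotation of the same build Jun lies on chromosome 4 (95049034-95052222, minus strand), Fos on chromosome 12 (85473890-85477273, plus strand), and Junb and Jund both on chromosome 8 (84974484-84978718 and 70698949-70700616). Maff lies on chromosome 15 (79346621-79359076) and Fosl2 on chromosome 5 (32135801-32157842), both on the plus strand. Atf3 lies on chromosome 1 (191170296-191218039, minus strand), and the start used for its promoter is inside that span.

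Cells were grouped by clustering and a cluster was given a class only from marker genes, so each class name stands for cells that look like that type (rod-like cells and so on). Of 20033 cells kept, 7271 were rods, 1126 cones, 3596 bipolar cells, 3287 amacrine cells and 1425 Müller glia, and 2907 cells in 8 of 25 clusters had no name. Libraries held 2565568 to 6517776 UMIs, and the median cell held 1003.5 to 2341 UMIs depending on the mouse. The control cones were only 73 cells in all, too few for fine differences in that class. Cell barcodes were partly shared, with 1154 barcodes seen in more than 1 library and at most 52 in the same pair of libraries. The control libraries stood apart from all 8 STZ libraries in RNAs other than messenger RNA: Rn7sk, a small nuclear RNA, was at 193 to 290 CPM (UMIs of the gene per 1000000 UMIs) in the 3 controls and 1.15 to 16.2 in the 8 STZ mice, and the mitochondrial ribosomal RNA mt-Rnr2 was at 28200 to 41200 against 3060 to 8230. STZ, the preparation of the libraries and the response of cells to dissociation cannot be told apart in any comparison with control.

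Levels below are CPM, from the UMIs of the gene and of all genes summed over the cells of one mouse and class, with trimmed-mean (TMM) scaling within a class. They count tagged 3′ ends with no length correction, so levels of different genes are not ranked. Fos, partner of all JUN proteins, was at 41.5, 28.2 and 103 CPM in the whole retina of the 3 control mice and at 394, 379 and 582 in the 3 Phase I ROP mice. It was at 741 and 656 in the 2 ω-3 mice, and at 570.5, 705 and 821 in the 3 ω-6 mice. Every STZ mouse was above every control mouse, and control mouse 3 was the highest control. The log2 difference between Phase I ROP and control, fitted by edgeR, was 2.93 (SE 0.355), and without control mouse 3 it was 3.67. Fosb, whose product behaves as FOS in pairing with JUN proteins, was nearly absent from the controls, at 0.813, 0.421 and 1.02 CPM, against 113, 110 and 139 in Phase I ROP. It was at 218 and 135 in the ω-3 mice and at 169, 172 and 164 in the ω-6 mice. All STZ mice were above all controls, and the log2 difference between Phase I ROP and control was 7.20 (SE 0.265). Fosl2 went from 3.66, 1.26 and 5.08 CPM in control to 23.4, 30.0 and 33.9 in Phase I ROP, a log2 difference of 3.05 (SE 0.344). In the diet groups it was at 23.5 and 9.91 (ω-3) and at 8.59, 23.8 and 11 (ω-6), so the diet groups reached lower than the STZ mice on neither diet but did not reach the controls.

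Among the JUN genes, Jun was at 26.8, 19.8 and 42.3 CPM in control and at 287, 220 and 291 in Phase I ROP, a log2 difference of 3.13 (SE 0.224). The ω-3 mice had 236 and 227 CPM and the ω-6 mice 271, 323 and 298, all far above the controls. Junb, a weaker activator than JUN, was at 43.5, 37.1 and 51.5 CPM in control and at 167, 179 and 220 in Phase I ROP, a log2 difference of 2.08 (SE 0.157). In the ω-3 mice it was at 365 and 310.5 CPM and in the ω-6 mice at 296, 299 and 323, so the 5 diet mice were all above the 3 STZ mice on neither diet. Whether those groups share a litter is not given in the labels, and the difference was not tested. Jund had the smallest difference of the 8, from 142, 106 and 157 CPM in control to 313, 311 and 320.5 in Phase I ROP, or 1.20 (SE 0.140) on the log2 scale. It was at 435 and 280.3 CPM in the ω-3 mice and at 297, 412 and 429 in the ω-6 mice.

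Atf3 and Maff were close to 0 in controls. Atf3 was at 0, 0.843 and 0.677 CPM in control and at 32.8, 18 and 27.9 in Phase I ROP, a log2 difference of 5.55 (SE 0.502), with 37.7 and 25.5 in the ω-3 mice and 26.7, 32.9 and 19.9 in the ω-6 mice. Maff was at 0, 0 and 3.72 CPM in control and at 92.0, 70.9 and 61.8 in Phase I ROP. It was at 123 and 60.5 in the ω-3 mice and at 60.1, 59.7 and 48.5 in the ω-6 mice. Control mouse 3 held 11 UMIs of Maff, all those counted in the controls, so the log2 difference of 5.68 (SE 0.513) rests on that mouse. The groups did not overlap for either gene. A sum over the whole retina mixes classes whose shares differ between mice, so fewer cells of a class and less RNA per cell cannot be told apart in these values, and the classes are taken one by one below.

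**Figure D1:**
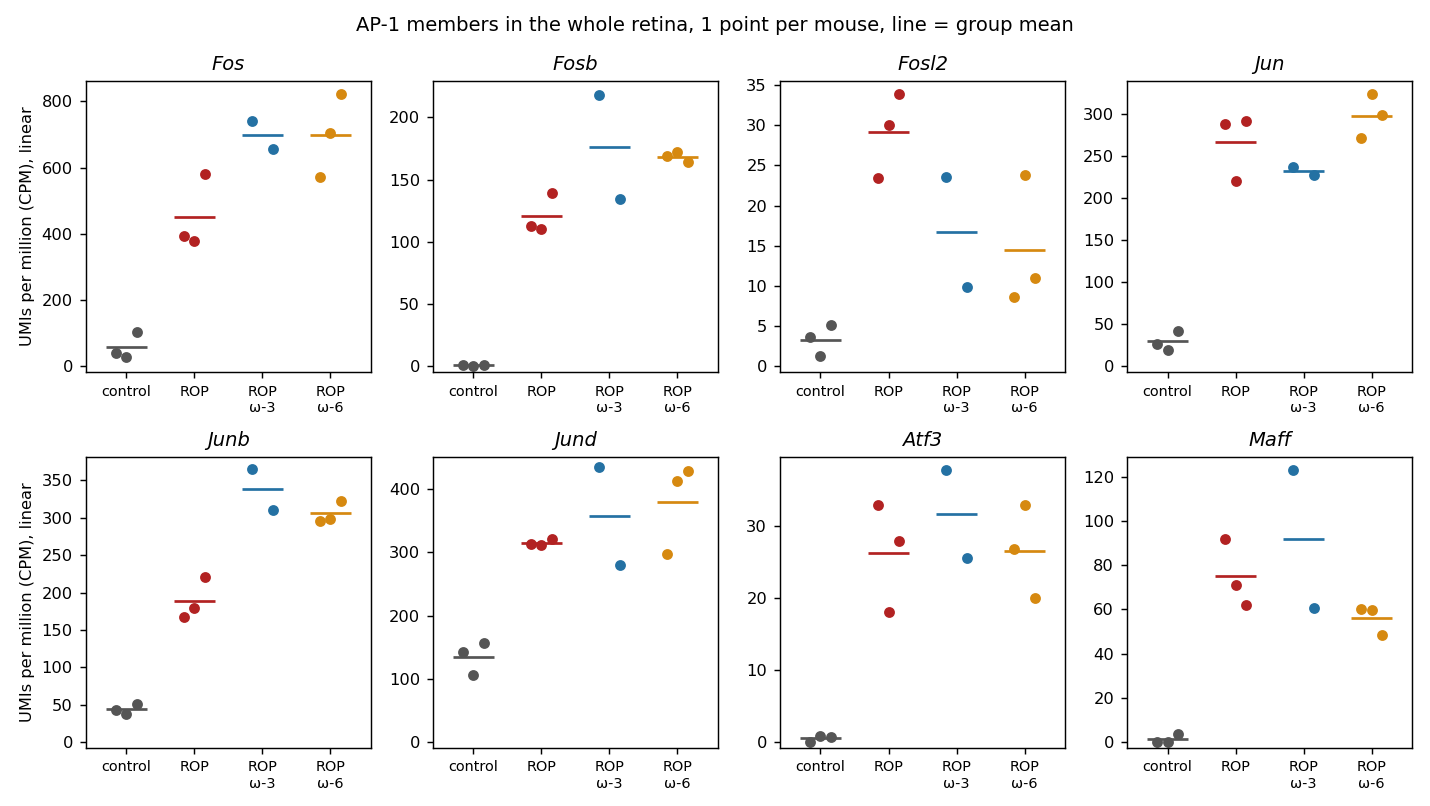
Level of each of the 8 AP-1 genes in the whole retina, in CPM on linear axes from 0, 1 point per mouse (3 control, 3 Phase I ROP, 2 ω-3 and 3 ω-6 mice) with a line at each group's mean. For every gene the control points lie below all points of the 3 STZ-treated groups, with little room for Fosl2 (1.26 to 5.08 CPM in control, 8.59 the lowest STZ mouse).

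The makeup of the family's counts differed with the group. In the controls 2169 UMIs of the 8 genes were counted in all, and the median mouse had 54.7% of them from Jund, 16.9% from Junb, 16.1% from Fos and 10.4% from Jun. In the 8 STZ mice 70104 UMIs were counted, with medians of 34.4% from Fos, 20.1% from Jund, 16.0% from Jun, 15% from Junb and 8.33% from Fosb. Summed over the 8 genes, the level was 179 to 319 CPM in controls and 1459 to 2304 in STZ mice in the whole retina (no TMM scaling). In rods the same sum was 88.1 to 149.6 against 1068 to 1922 CPM, and in cones 78.1 to 216 against 1393 to 2196. It was 124 to 172 against 576 to 968 in bipolar cells, 179 to 276 against 1421 to 2603 in amacrine cells, and 435 to 1032 against 4098 to 6480 in Müller glia. Of these classes Müller glia thus had the highest summed level and bipolar cells the lowest among the 8 STZ mice. Rn7sk moved the other way in every one of these classes: it was at 188 to 239.5 CPM in control rods against 0 to 8 in the rods of STZ mice, at 240.4 to 388 against 0 to 25.1 in Müller glia, and at 147 to 155 against 1.15 to 44.9 in amacrine cells. Its part in the difference was not tested.

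**Figure D2:**
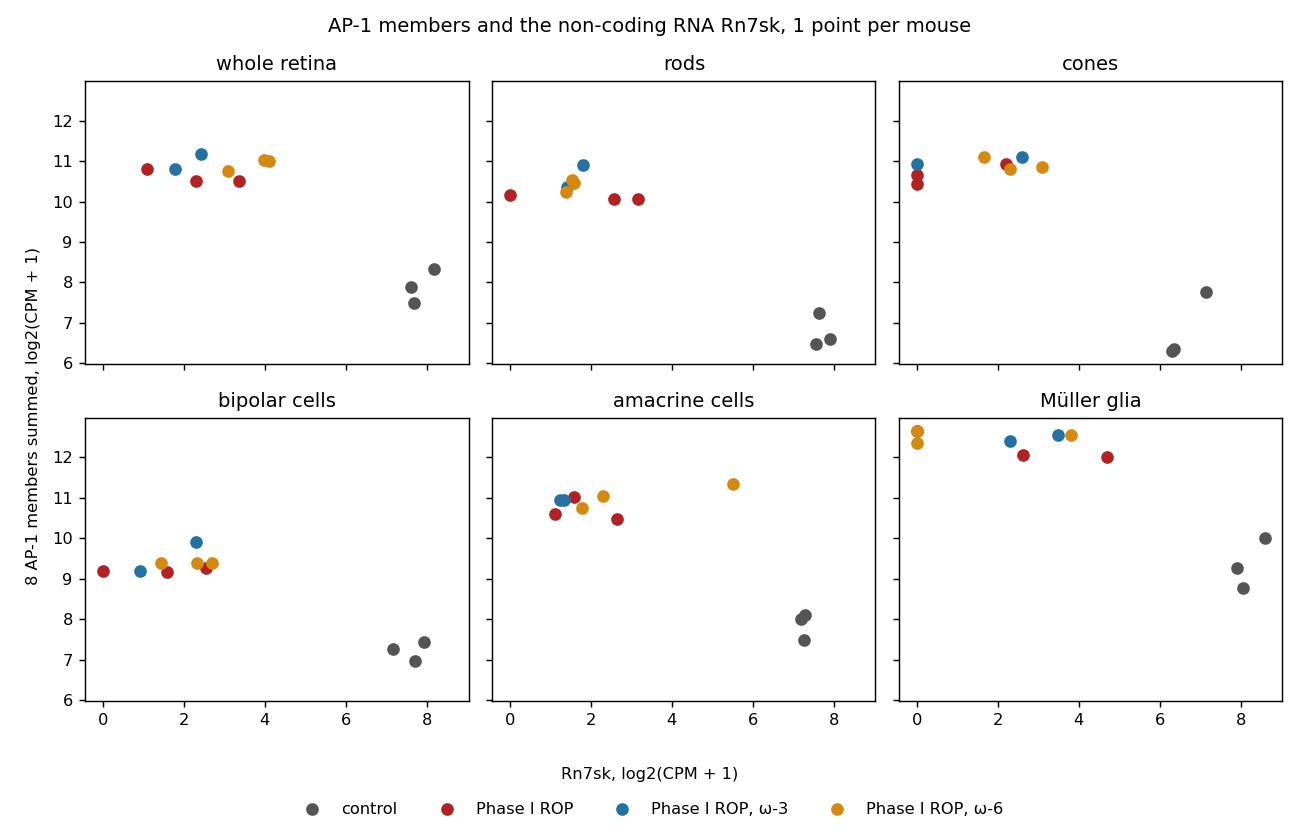
Summed level of the 8 AP-1 genes against the level of Rn7sk in the same mouse, both as log2(CPM + 1), 1 point per mouse coloured by group, for the whole retina and 5 classes. In every panel the 3 control mice lie at high Rn7sk and low AP-1 and the 8 STZ mice at lower Rn7sk and higher AP-1, and in amacrine cells 1 ω-6 mouse (44.9 CPM of Rn7sk) lies nearest to the controls' Rn7sk.

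Within the 8 STZ mice each gene had its own order over the 5 classes. Because the classes come from clustering the same cells, these levels are a description with no test. Fos had means of 1420 CPM in Müller glia, 1040 in the amacrine cells, 591 in cones, 299 in rods and 99.9 in the bipolar cells. Müller glia were above amacrine cells in 7 of 8 mice and each further step held in 8 of 8, although the ranges over mice of all neighbouring classes overlapped. Amacrine cells, the inhibitory interneurons of the inner retina, were the neurons with the most Fos, at 723, 758 and 1066 CPM in Phase I ROP, 1001 and 1088 in the ω-3 mice and 970.3, 1131 and 1565 in the ω-6 mice. In their controls Fos was at 49.4, 26.9 and 81.4 CPM, far below. Over the amacrine clusters the median Fos level in the STZ mice was 762 to 1180 CPM (no TMM scaling).

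Jun went with a different order. Its mean in the STZ mice was 714 CPM in Müller glia, 366 in cones, 357 in rods, 117 in the bipolar cells and 109 in the amacrine cells. Cones were above rods in only 4 of 8 mice and bipolar cells above amacrine cells in 6 of 8, so neither of those neighbours can be ordered, while rods were above bipolar cells in all 8 with no overlap. In rods Jun was at 25.2, 0 and 47.1 CPM in control and at 439, 433 and 391.9 in Phase I ROP, with 289.5 and 212 in the ω-3 mice and 275, 463 and 351 in the ω-6 mice. Control rods were all below every STZ mouse. The family's UMIs were made up differently in the 2 classes: Fos gave a median of 55.1% of them in amacrine cells of the STZ mice and 20.8% in rods, and Jun 5.36% in amacrine cells and 27.0% in rods.

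Junb had no clear order among the upper classes. Its means in the STZ mice were 367 CPM in cones, 343 in Müller glia, 302 in rods and 264 in the amacrine cells, and neighbours were in that order in only 4 to 6 of 8 mice. Bipolar cells were lower, at 87.9 CPM, with no overlap with amacrine cells. In rods Junb was at 6.30, 0 and 4.28 CPM in control, at 154, 201 and 243 in Phase I ROP, at 459.8 and 360.2 in the ω-3 mice and at 325, 303 and 367 in the ω-6 mice. The diet mice were all above the STZ mice on neither diet there too.

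For Fosb, Atf3, Maff, Fosl2 and Jund, Müller glia stood highest of the 5 classes in all 8 STZ mice. Classes with too few cells for a fit are not part of this order. Fosb had a mean of 823 CPM there in the STZ mice, against 161 in cones, 102 in the amacrine cells, 67.9 in rods and 26.3 in the bipolar cells, and Müller glia did not overlap with cones. In Müller glia it was at 4.18, 6.65 and 5.61 CPM in control, at 626, 655 and 900 in Phase I ROP, at 835 and 856 in the ω-3 mice and at 1114, 834 and 762 in the ω-6 mice. The controls held 4 UMIs of it in all, and no STZ mouse was near them. Atf3 was at 0 in the Müller glia of all 3 controls, at 152, 65.5 and 195 CPM in Phase I ROP, at 136 and 150.5 in the ω-3 mice and at 149, 168 and 116 in the ω-6 mice. Its mean of 142 CPM in the STZ mice stood above cones (29.6), rods (20.1), bipolar cells (4.08) and amacrine cells (1.85), with no overlap between Müller glia and cones or between rods and bipolar cells. Among these classes Atf3 was thus counted in Müller glia and photoreceptors and was near 0 in amacrine cells, in which Fos was high.

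Maff had the widest gap between its first and its second class. In Müller glia it was at 0, 0 and 25.2 CPM in control, at 838, 865 and 741 in Phase I ROP, at 789.7 and 737 in the ω-3 mice and at 842, 688 and 503 in the ω-6 mice. The STZ mice had a mean of 751 CPM there and 5.94 to 6.97 in each of the other 4 classes, and the ranges did not overlap. In those classes the median Maff level was 0.338% to 0.688% of the same mouse's Müller glia level. The 10 Müller glia markers, summed, were at a median of 0.685% of their Müller glia level in rods, 1.16% in cones, 1.40% in the bipolar cells and 3.07% in the amacrine cells. The share of Maff was close to theirs in rods and lower in the other classes at the median. Single mice reached 2.13% in rods, where the markers reached 1.41%, 2.19% in cones (markers 1.96%) and 3.79% in the bipolar cells (markers 3.27%), and whether this Maff was made in those cells was not tested. The bipolar cells of ω-3 mouse 1 stood apart, with 29.5 CPM of Maff against 1.5 to 5.1 in the bipolar cells of the other 7 STZ mice. The Müller glia markers were also highest in that mouse's bipolar cells (497 CPM, against 248 to 425, no TMM scaling).

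Of the 5 classes, Fosl2 was counted in Müller glia and amacrine cells and hardly in the others. Its mean in the STZ mice was 92.0 CPM in Müller glia and 30.6 in amacrine cells, with Müller glia above in all 8 mice and amacrine cells above every other class without overlap. In amacrine cells it was at 5.61, 1.12 and 4.00 CPM in control and at 37.8, 42.7 and 66.4 in Phase I ROP, with 30.5 and 12.8 in the ω-3 mice and 14.9, 20.8 and 19.3 in the ω-6 mice. The rods of the 3 Phase I ROP mice held 1 UMI of it and those of the 3 controls 1 UMI, and in cones neither group held any. Jund, whose protein many resting cells hold, had a mean of 272 CPM in control Müller glia, 139 in the amacrine cells, 110 in the bipolar cells, 74.3 in rods and 60.9 in cones. In the STZ mice Müller glia were at 1060 CPM with no overlap, and the other 4 classes were between 259 and 304 with neighbours in order in only 4 to 6 of 8 mice.

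**Figure D3:**
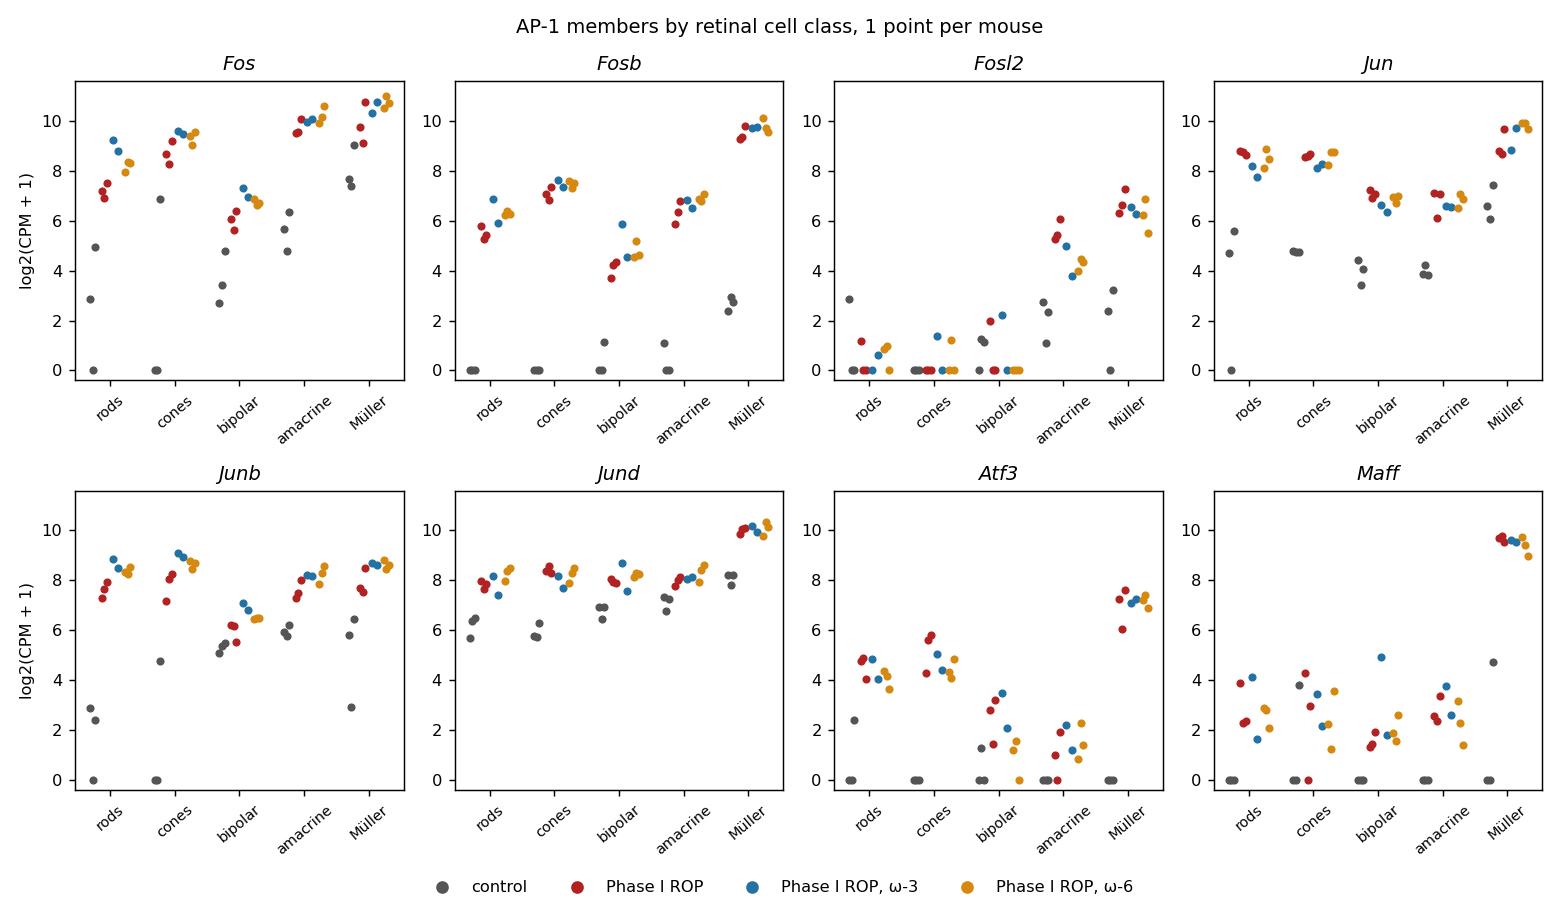
Level of the 8 AP-1 genes in 5 retinal classes as log2(CPM + 1), 1 point per mouse, with colours for the 4 groups. In the STZ mice Fosb, Atf3, Maff and Jund are highest in Müller glia without overlap with the next class, whereas Fos is high in Müller glia and amacrine cells and Jun in Müller glia and both photoreceptors.

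The difference between Phase I ROP and control was then set out class by class. Adjusted p below 0.05 in the edgeR fit and a higher level in Phase I ROP was met by 24.7% of the genes tested in the whole retina, 16.9% in rods, 10.9% in cones, 21.3% in the bipolar cells, 18.3% in the amacrine cells and 5.81% in Müller glia. A lower level was met by 23.4%, 17.2%, 7.9%, 23.9%, 20.5% and 5.03%. The members that passed the filter on low counts were 8 in the whole retina, 5 in rods, 5 in cones, 4 in the bipolar cells, 6 in the amacrine cells and 8 in Müller glia, and of these 8, 5, 5, 3, 6 and 8 were called higher and 0 lower. Nothing is read from these counts, since the genes were chosen with this contrast known and a gene silent in controls passes the filter only through the STZ mice. All 3 Phase I ROP mice above all 3 controls was found for 30.6%, 31.2%, 24.7%, 26.9%, 26.3% and 14.3% of the genes tested in the same 6 sets. Members' values did not overlap for 8, 5, 5, 4, 6 and 8 of those that passed. The median log2 difference of the members that passed was 3.09 in the whole retina, 3.69 in rods, 3.85 in cones, 1.69 in the bipolar cells, 3.30 in the amacrine cells and 3.32 in Müller glia, beside 0.001, 0.0881, 0.104, 0.024, 0.0209 and 0.000844 over all genes tested. With genes silent in controls at their bound, the medians were 3.10 in rods and 3.01 in cones, and 3.32 as before in Müller glia. In the bipolar and amacrine cells no member that passed was silent in controls.

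In rods Fos was at 6.30, 0 and 30.0 CPM in control and at 144, 120 and 184 in Phase I ROP, a log2 difference of 3.10 (SE 0.475). Control mouse 3 held 7 of the 8 control UMIs of Fos. For Jun the difference moved from 3.69 (SE 0.355) to 4.64 without that mouse. Fosb had 0 UMIs in control rods and 105 in Phase I ROP rods, at least 8.18-fold higher against a floor of 3 counts over the group. Junb had 2 UMIs in control rods and 467 in Phase I ROP, a ratio of levels of 54.6 with a 95% counting interval of 15 to 452, and Atf3 had 1 and 51, a ratio of 11.9 (2.04 to 480). Jund differed least, from 50.4, 82.5 and 89.9 CPM to 248, 199.5 and 229.8, or 1.47 on the log2 scale (SE 0.286).

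Cones gave the same picture with fewer cells. Jun was at 26.6, 25.7 and 26.1 CPM in control, 1 or 2 UMIs a mouse, and at 378, 381 and 409 in Phase I ROP, a log2 difference of 3.85 (SE 0.473). Fos was at 0, 0 and 117 CPM in control and at 410, 311 and 579 in Phase I ROP. The log2 difference was 2.92 (SE 0.52), and all control UMIs came from mouse 3, so without that mouse no fold can be given but a bound. Fosb was at least 8.06-fold and Atf3 at least 2.45-fold higher, with no UMI of either in control cones. For Maff 1 UMI in controls stood against few in Phase I ROP, and the ratio of 1.42 had a counting interval of 0.172 to 65.4, too wide to order the groups. Rod transcripts were also more frequent in the cones of STZ mice: the 10 rod markers, summed, were at 32.0% to 79.1% of their level in rods, against 31.6% to 33.2% in controls, and their part in the AP-1 values of cones was not tested.

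Bipolar cells, which carry the signal from photoreceptors to the inner retina, had the lowest summed level of the 5 classes in the STZ mice. Fos was at 5.54, 9.83 and 26.5 CPM in control and at 66.0, 48.9 and 82.0 in Phase I ROP, with 159 and 124 in the ω-3 mice and 118, 98.6 and 103 in the ω-6 mice. The log2 difference between Phase I ROP and control was 2.2 (SE 0.42), or 3.05 without control mouse 3. Jun differed by 3.12 (SE 0.272) and Jund by 1.18 (SE 0.171). Junb was at 33.2, 40.7 and 43.4 CPM in control and at 72.0, 71.6 and 45.1 in Phase I ROP, which did not overlap but came close, and its log2 difference of 0.68 (SE 0.273) was the only one of the tested members' not called. Among bipolar cells of the STZ mice the cluster led by Grm6 and Trpm1, genes of the ON pathway, had medians of 77.6 CPM for Fos, 100 for Jun and 15.9 for Fosb. The cluster led by Grik1 and Scgn, genes of cone bipolar cells, had medians of 187, 206 and 53.8. The medians of both clusters have no TMM scaling.

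In amacrine cells Fos differed by 4.01 on the log2 scale (SE 0.258), its largest difference over the 5 classes with all 6 mice in the fit. Jun was at 13.5, 18 and 13.3 CPM in control and at 138, 67.6 and 134 in Phase I ROP, and differed by 2.88 (SE 0.31). Junb differed by 1.65 (SE 0.206), Fosl2 by 3.71 (SE 0.451) and Jund by 0.82 (SE 0.165). Fosb had 1 UMI in control amacrine cells, a ratio of 264 with an interval of 47.0 to 10500. In Müller glia Fos differed least, by 1.81 (SE 0.409), from 205, 166 and 524 CPM in control to 864, 547 and 1724 in Phase I ROP. Control mouse 3 reached almost to the lowest Phase I ROP mouse, and the difference was 2.55 without that control and 1.24 without Phase I ROP mouse 3. Control Müller glia thus already held Fos at a mean of 298 CPM, the highest of the control classes, beside 52.6 in amacrine cells. Fosb differed by 7.03 (SE 0.338), Maff by 6.14 (SE 0.439), with all 9 control UMIs of Maff from mouse 3, and Fosl2 by 4.35 (SE 0.584). Atf3, with 116 UMIs in Phase I ROP and 0 in control, was at least 40.7-fold higher. Jun (2.29, SE 0.327), Junb (2.23, SE 0.445) and Jund (1.96, SE 0.17) made up the rest.

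Counted per cell, the genes were spread over many cells. After each cell was thinned to 500 UMIs and shallower cells were left out, a UMI of at least 1 of the 8 genes was found in a median of 34.9% of rods in the STZ mice (30.5% to 45.2%), 50.3% of cones (44.0% to 61.7%), 24.8% of bipolar cells (19.9% to 32.2%), 46.9% of amacrine cells (41.1% to 58.6%) and 66.1% of Müller glia (51.2% to 72.3%). In controls the share was 4.05% to 6.93% in rods, 0% to 14.3% in cones, 5.34% to 8.28% in the bipolar cells, 9.17% to 10.6% in the amacrine cells and 6.98% to 30.2% in Müller glia. No control mouse reached any STZ mouse in the same class. With all UMIs the medians in the STZ mice were 51.8%, 86.8%, 56.0%, 85.3% and 76.2%, which also reflects the depth of the cells. Fos was found in a median of 30.7% of thinned amacrine cells and 23.2% of Müller glia, and Jund in 36.2% and Fosb in 23.5% of Müller glia. Maff was found in 20.4% of Müller glia (11.3% to 26.8%) and in at most 0.357% of the cells of any other of these classes at the median.

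**Figure D4:**
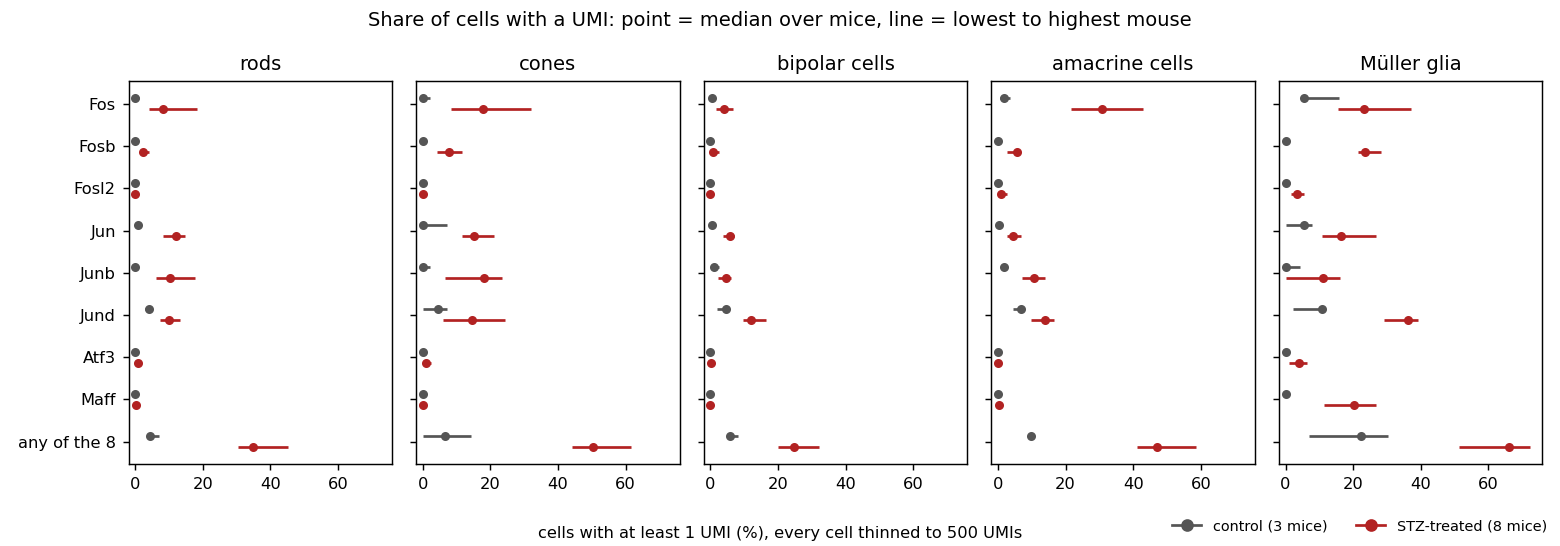
Share of cells with a UMI of each of the 8 AP-1 genes, and of any of them, in percent after thinning to 500 UMIs a cell, in 5 classes; points are medians over mice (3 control, 8 STZ) and lines run from the lowest to the highest mouse. For any of the 8 genes the control mice lie between 0% and 30.2% and the STZ mice between 19.9% and 72.3%, and within each class the lines of the groups do not overlap.

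Some pairs of members were counted in the same cells more often, and others were not. Among thinned Müller glia of the STZ mice, Jun was found in a median of 38.1% of cells with a Fos UMI and 8.98% of cells without, higher in 8 of 8 mice. Maff and Fosb went together in the same way, with Fosb in 42.6% of cells with Maff and 19.4% of cells without, in 8 of 8 mice. Atf3 was found in 9.20% of cells with Maff and 2.46% without, higher in 7 of 8 mice (ranges 0% to 26.7% and 0% to 4.57%). For Fos the medians were 0.806% with and 4.09% without, higher in 3 of 8 (ranges 0% to 12.9% and 0% to 7.85%). Few cells held Atf3 and the ranges overlap, so no absence of Atf3 from cells with Fos is read from these values. In amacrine cells Junb was found in 16.8% of cells with Fos and 7.13% without, and in rods in 23.4% and 9.74%, in 7 of 8 mice each. For Jun, Maff in Müller glia was found in 20.2% of cells with it and 20.7% without, higher in 4 of 8 mice. Junb in cones was found in 17.9% of cells with Jun and 19.7% without, higher in 3 of 8. Cells of one mouse share their library, and these medians over mice are a description.

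Whether the diet changed AP-1 genes in hyperglycemic pups was tested on each member, with p adjusted over all genes. This comparison holds none of the control mice that the choice of genes rested on, although earlier results of the diet groups were also known. edgeR's quasi-likelihood test called 0.0% of genes in the whole retina, 0.0177% in rods, 0.0% in cones, 0.0% in the bipolar cells, 0.0% in the amacrine cells and 0.0% in Müller glia. None of the members passed, with Benjamini-Hochberg adjustment over all genes tested (8, 6, 6, 5, 7 and 8 members tested in the 6 sets). At an unadjusted p under 0.05 there were 1328, 1163, 736, 503, 1298 and 283 genes in these sets, among them 2, 2, 1, 1, 0 and 1 members. DESeq2 called 20, 24, 5, 2, 8 and 2 genes. The members' median log2 difference (ω-6 minus ω-3) was -0.10 in the whole retina, -0.22 in rods, -0.13 in cones, -0.41 in the bipolar cells, 0.24 in the amacrine cells and 0.02 in Müller glia, beside medians over all genes of 0.00336 to 0.0209.

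Fos in rods had the largest difference relative to its error. It was at 609 and 448 CPM in the 2 ω-3 mice and at 245, 322 and 321 in the 3 ω-6 mice. The groups did not overlap, and the means were 529 ± 114 (SD, n = 2) and 296 ± 44.3 (SD, n = 3). The log2 difference was -0.83 (SE 0.176), with an unadjusted p of 0.000364 and an adjusted p of 0.33 by edgeR, so it was not called. The call turned on the method: DESeq2 gave an adjusted p of 0.00249 and the same edgeR test with no filter on low counts 0.00064, whereas leaving out each mouse gave 0.261 to 0.657. The sign was the same in every alternative, between -1.03 and -0.595. The rods of the Phase I ROP mice on neither diet had 144, 120 and 184 CPM, below both diet groups. In the same rods mt-Rnr1 and mt-Rnr2, the mitochondrial ribosomal RNAs, were higher in the ω-6 mice, by 1.37 (SE 0.18, edgeR adjusted p = 0.0164) and 1.28 (SE 0.15, adjusted p = 0.00857), and Rn7sk in the whole retina was at 7.50 to 16.2 CPM in the ω-6 mice against 2.46 to 4.41 in the ω-3 mice. Their part in the Fos difference was not tested. In the other sets the log2 difference of Fos was -0.22 (SE 0.168) in cones, -0.41 (SE 0.221) in the bipolar cells, 0.24 (SE 0.17) in the amacrine cells, 0.18 (SE 0.19) in Müller glia and 0.00494 (SE 0.162) in the whole retina. Whether the classes differ from each other was not tested.

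Jun was higher in the ω-6 mice in all 6 sets without being called in any. In the whole retina it was at 271, 323 and 298 CPM in the ω-6 mice and at 236 and 227 in the ω-3 mice, with no overlap. The log2 difference was 0.37 (SE 0.135, adjusted p = 0.682 by edgeR), and it was 0.54 (SE 0.211, adjusted p = 0.421) in rods, 0.40 in cones, 0.38 in the bipolar cells, 0.29 in the amacrine cells and 0.51 (SE 0.234, adjusted p = 0.994) in Müller glia. Maff was lower in the ω-6 whole retina, at 56.1 ± 6.59 CPM (SD, n = 3) against 91.7 ± 44.2 (SD, n = 2). The log2 difference of -0.70 (SE 0.253) had an adjusted p of 0.682 by edgeR, and it fell to -0.12 without ω-3 mouse 1. In Müller glia, its main source, it was -0.19 (SE 0.215). Junb was lower in the ω-6 mice in cones, at 398 ± 46.0 (SD, n = 3) against 515 ± 35.4 (SD, n = 2), and in the bipolar cells, at 88.2 ± 1.07 against 125 ± 17.4, with log2 differences of -0.38 (SE 0.164, adjusted p = 0.609) and -0.50 (SE 0.218, adjusted p = 0.991) by edgeR. For the other genes and classes the adjusted p by edgeR was 0.503 to 0.999. With 2 and 3 mice these values do not show that the diets act alike.

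**Figure D5:**
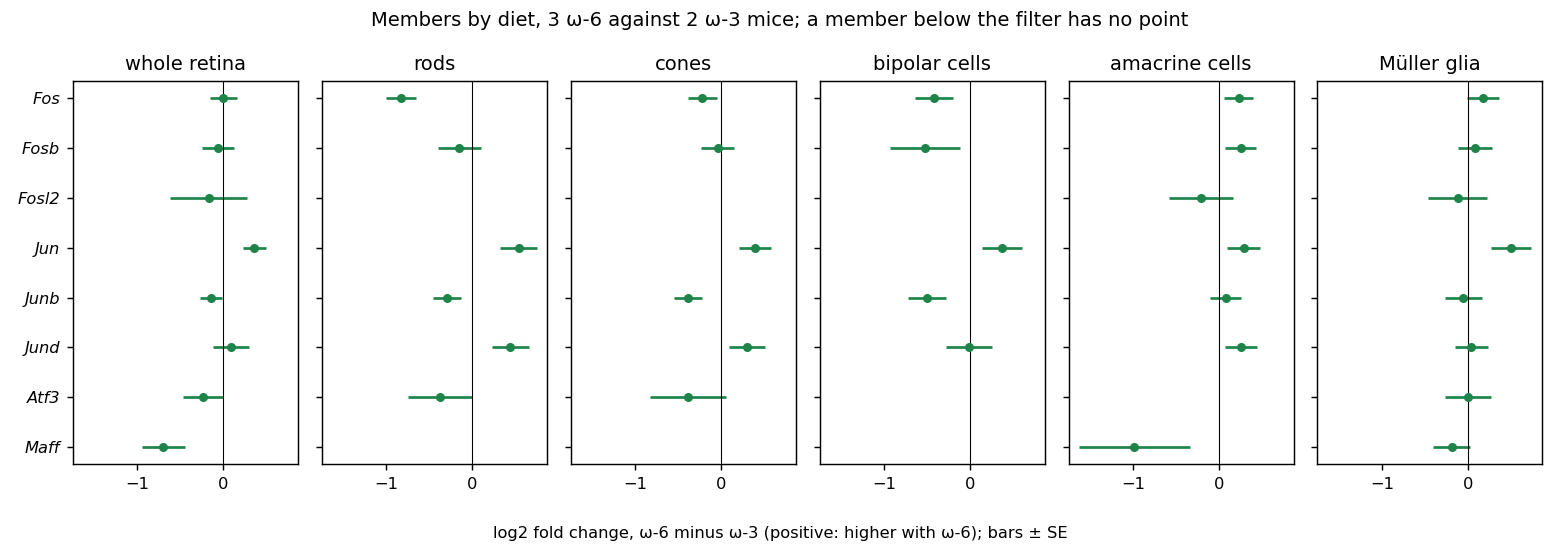
Log2 difference (ω-6 minus ω-3) of each tested AP-1 gene in the whole retina and 5 classes, points with bars of 1 SE either side from the edgeR fit (3 ω-6 and 2 ω-3 mice); a gene below the filter has no point. Fos in rods (-0.83, SE 0.176) lies farthest from 0 relative to its bar, and Jun lies above 0 in all 6 sets, between 0.29 and 0.54.

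Other genes around AP-1 were read from lists written by function. Of 26 further bZIP genes tested in the whole retina (ATF, CREB, C/EBP and MAF relatives), 19 were called higher in Phase I ROP (24.7% of all genes) and 1 lower, with a median log2 difference of 1.24. In Müller glia the count was 5 higher (5.81% of all genes tested there) and 0 lower (5.03%) of 13. Cebpb, a C/EBP factor of inflammation and stress, was at 224 to 326 CPM in Phase I ROP Müller glia and 0 to 5.61 in control, a log2 difference of 6.48 (SE 0.518). Cebpd, its relative, had 118 UMIs in Phase I ROP rods and 0 in control rods, at least 9.19-fold higher, and Jdp2, a JUN-binding repressor of AP-1, differed by 4.43 (SE 0.431) in Müller glia. Nrl, the rod-determining bZIP factor, was at 345 to 723 CPM in Phase I ROP cones and 0 to 13 in control cones, the class in which rod markers were also higher.

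Kinases, ubiquitin ligases and serum response factors that act on AP-1 formed the next list. Of 33 tested in the whole retina 14 were called higher (24.7% of all genes) and 2 lower, with a median of 0.45. In Müller glia 0 were called higher (5.81% of all genes tested there) and 1 lower (5.03%) of 12. Mef2d, a MEF2 factor known to bind the Jun promoter, was at 255 to 281 CPM in Phase I ROP rods and 38.5 to 113 in control (log2 difference 1.77, SE 0.318). Itch, a ubiquitin ligase that removes JUN proteins, was at 127 to 257 CPM in Phase I ROP rods and 1560 to 2150 in control (-3.59, SE 0.25). The p38 kinase gene Mapk14 differed by 1.98 (SE 0.435) in bipolar cells and its activator Map2k3 by 1.65 (SE 0.455) in amacrine cells.

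Of genes known as AP-1 targets, the counts lay near the background. In the whole retina 9 of 28 were called higher and 4 lower, with a median of 0.21, and in Müller glia, the class with the highest summed AP-1 level of the 5, 1 of 11 was called higher, beside 24.7% of all genes called higher in the whole retina and 5.81% in Müller glia. Nothing is read about the targets from these counts. Mmp14, a membrane metalloprotease, was lower in Phase I ROP rods (5.70 to 12.4 CPM against 56.7 to 392, log2 difference -4.13, SE 0.629). Jag1, a Notch ligand, differed by 2.56 (SE 0.587) in rods, Bcl2l11, which encodes the death-promoting protein BIM, by 1.84 (SE 0.477) in Müller glia, and Sox11 by 1.39 (SE 0.186) in amacrine cells. Of other early response and heat shock genes, 48 of 62 were called higher and 6 lower in the whole retina, with a median of 1.88, and 30 of 43 higher and 3 lower in Müller glia, with a median of 2.71. The nuclear receptor gene Nr4a3 was at least 123-fold and Egr3 at least 67.7-fold higher in Müller glia, the chaperone gene Dnajb1 at least 17.8-fold in cones and Nr4a1 at least 13.6-fold in rods, all with 0 UMIs in controls. By diet none of the genes of these 4 lists was called in any class, and Egr1, an early gene at 668 ± 76.4 CPM in the ω-6 mice (SD, n = 3) and 1030 ± 26.2 in the ω-3 mice (SD, n = 2), had a log2 difference of -0.62 (SE 0.131, edgeR adjusted p = 0.682).

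Within the STZ mice Fos and Jun also had different neighbours in their pattern over mouse and class. Over 40 sums of the 8 STZ mice and 5 classes, and among 8455 genes of at least 20 CPM on average, the genes most like Fos by Pearson correlation of log2 CPM were Nr4a1 (0.955), Tspan7 (0.811), Meis1 (0.811), Gadd45b (0.803) and Gnb2 (0.798). Fosb (0.842) and Junb (0.79) were as close, whereas Jun was at 0.382. The genes most like Jun in the same sums were Epas1 (0.893), Myo6, Oat, Slc2a1 and Slc16a1 (0.883 each), and of the members Atf3 came closest (0.92). With the controls included (55 sums) Nr4a1 (0.901), Ier2 (0.879), Actn4 (0.849), Per1 (0.84) and Camk2n1 (0.819) were most like Fos, and Ier2 (0.90), Slc7a8 (0.866), Btg2 (0.864), Amotl2 (0.85) and Dnajb1 (0.849) most like Jun. Ier2 was thus in both lists, and Fos and Jun correlated at 0.782 over these sums. The sums of one mouse share a library and those of one class share its other genes, so these coefficients describe the likeness of patterns and carry no test.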

How the data were processed

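The authors sequenced inDrop v3 libraries and made UMI counts with bcbio-nextgen, umis and Rapmap against mouse genes (GENCODE, build GRCm38.p6, also called mm10, per the labels), leaving out barcodes with few reads. The deposited table holds these counts, whole numbers of molecules per gene and cell, not normalized, for 25311 genes and 20067 cells of 11 mice. Groups were taken from the labels. The labels do not say that replicate mice came from separate litters, so the spread is that between pups.

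The 8 genes, the gene lists and the tests were chosen with earlier results of these data known. Cells with more than 300 genes were kept (20033) and clustered in Seurat 5.3.0 (R 4.3.3) on 2000 variable genes and 75 principal components at resolution 0.2. A cluster was named where at least 3 markers of a class were detected and one was among its 10 leading genes by fold; 8 clusters stayed unnamed. Doublet calling by Scrublet (scanpy 1.11.5) marked under 0.5% of cells and was not used; an alternative left out the highest 5% of its scores. UMIs were summed per mouse and class and fitted in edgeR 4.0.16 (glmQLFit, glmQLFTest, TMM, filterByExpr), with Benjamini-Hochberg adjustment over all genes tested in a class and a threshold of 0.05. The fit kept edgeR's default prior count, and a prior count of 2 was used only for log2 CPM. DESeq2 1.42.0 was an alternative. Where a group had 0 UMIs, a fold is a bound against 3 counts over the group, and with 1 to 3 UMIs the ratio has an exact 95% interval; both cover counting error only. Shares of cells were computed after thinning to 500 UMIs. The edgeR step was tested on simulated counts. The text names all 8 members and, from each list and comparison, at most 4 called genes with the largest change whose mice did not overlap, or the 2 with the highest level where none was called. For Fos and Jun it also names the 5 genes most like each.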

Additional observations from a re-analysis of the deposited data

Results flagged for a closer look

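Signals were also seen in classes with too few cells for a fit, which no comparison above uses. Each is given as the sum over the mice of a group, without TMM scaling, with an exact 95% Poisson interval for counting error only. Mice are thus not replicates here and no group is tested. Beside each count stands the same share over genes with at least 10 UMIs in both groups together. The endothelial class held 113 cells here but 312 when early response genes were left out of the clustering. Levels in that larger class were not computed. In 7 of the 8 genes the interval of Phase I ROP endothelial cells (25 cells) lay above that of control endothelial cells (50 cells). Of genes with at least 10 UMIs this held for 11.8%, and for 7 of the 7 members among them. Junb, a regulator of vessel growth in endothelium, was at 935 CPM (763 to 1130) against 44.2 (22 to 79), and Fosl2 at 354 (252 to 484) against 28.1 (11.3 to 57.9). Endothelial cells were thus a class in which Fosl2, near 0 in photoreceptors, was counted. Fos in endothelial cells was at 490 CPM (368 to 639) in Phase I ROP, 2090 (1800 to 2420) in the ω-3 mice (12 cells) and 456 (374 to 550) in the ω-6 mice (26 cells). Of those 26 cells 21 came from ω-6 mouse 2, with 2 from mouse 1 and 3 from mouse 3, so nothing is read about the diet.

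In microglia the intervals lay above control for 5 genes (14 cells against 12), and for 4 of the 5 members with at least 10 UMIs beside 9.85% of all such genes. Junb was at 3450 CPM (2750 to 4270) against 81.3 (16.8 to 238), and Atf3 at 944 (598 to 1420) against 0 UMIs, which allows up to 99.9. Chemokine genes Ccl4 and Ccl3 were among the leading genes of the microglia cluster. In the ω-3 microglia Junb was at 699 CPM (484 to 977) and in the ω-6 microglia at 1370 (1060 to 1740). In astrocytes the intervals lay above control for 7 genes (13 cells against 6), and for 7 of the 7 members with at least 10 UMIs beside 6.2% of all such genes, with Fos at 2300 CPM (1910 to 2750) against 58.1 (7.04 to 210) and Jun at 1820 (1480 to 2230) against 87.2 (18 to 255).

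In retinal ganglion cells the intervals lay above control for 2 genes (20 cells against 27), and for 1 of the 4 members with at least 10 UMIs beside 6.51% of all such genes. Fos was at 304 CPM (230 to 395) against 7.46 (1.54 to 21.8) and Fosb at 48.9 (22.3 to 92.8) against 0 UMIs. Junb was at 70.6 (37.6 to 121) against 64.7 (42.2 to 94.7) and Jund at 239 (174 to 321) against 209 (167 to 259), with intervals that overlap, and Atf3 had 0 UMIs in both groups, which allows up to 20 and 9.17 CPM.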

How the results depend on the processing

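Every alternative was planned except 1, chosen after seeing the data: rods taken with the clusters whose cells mostly held rod markers. For Phase I ROP against control the number of genes called changed by over 1.5 times with sums thinned to equal depth (rods 702, cones 145), with all 4 groups in 1 fit (cones 961) and with DESeq2 (Müller glia 309). The members' median log2 difference moved to 4.97 in rods with thinned sums, to 2.19 (all 4 groups) and 2.7 (no filter) in bipolar cells and to 3.75 (all 4 groups) in amacrine cells. Leaving out 1 mouse gave medians of 2.81 to 3.59 in the whole retina, 3.15 to 5.29 in rods, 3.8 to 6.63 in cones, 1.81 to 3.05 in the bipolar cells and 2.96 to 4.07 in Müller glia, the highest in these 4 classes without control mouse 3, where some members in cones and Müller glia are then at 0 in controls and their fitted value depends on the prior count, and 1429 to 2516 calls in rods, 276 to 649 in cones and 265 to 420 in Müller glia.

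For ω-6 against ω-3 the calls in the whole retina, rods, cones, bipolar cells, amacrine cells and Müller glia were 20, 24, 5, 2, 8 and 2 by DESeq2. With no filter on low counts they were 84, 12, 18, 139 and 9 in the 5 classes, and in rods 7 with all 4 groups in 1 fit and 1 with cells of more than 500 genes. Without 1 mouse they were 0 to 2 in the whole retina, 0 to 13 in rods, 0 to 3 in cones, 0 to 5 in the amacrine cells and 0 to 4 in Müller glia. The members' diet median in rods was -0.309 (all 4 groups), -0.18 (more than 500 genes), -0.249 (clustered without early response genes), -0.237 (no filter), -0.21 (without the highest doublet scores) and -0.102 (the added choice of rods). Without 1 mouse this median was -0.294 to 0.194 in the whole retina, -0.563 to 0.226 in rods and -0.615 to 0.329 in bipolar cells, so it has no stable sign. Fos in rods was -0.843 (adjusted p = 0.00064) with no filter and -0.83 (adjusted p = 0.00249) by DESeq2, past the threshold in both.

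The replicate numbers are names: the deviations of same-numbered mice correlated at -0.03, 0.17 and 0.22 for Phase I ROP and control and at 0.13 and 0.43 for the diets. With the replicate number as a block the diet fits called 75, 45, 22, 17, 60 and 10 genes in the 6 sets. With the block the rods' diet median was -0.147 and Fos in rods -0.884 (adjusted p = 0.00137), and the sign turned for Fos in the whole retina (-0.134), Jund in bipolar cells (0.0725), Junb in amacrine cells (-0.0989) and Fosl2 in Müller glia (0.148). The sign also turned for Fos in the whole retina with all 4 groups (-0.00013) and without the highest doublet scores (-0.0129), for Fosb in cones without those scores (0.00761), for Jund in the bipolar cells clustered without early response genes (0.0564) or thinned (0.0782), and for Junb in Müller glia thinned (0.028). Without 1 mouse the diet difference changed sign in the whole retina for Fos (-0.127 to 0.133), Fosb (-0.354 to 0.309), Fosl2 (-0.756 to 0.553), Jund (-0.175 to 0.424) and Atf3 (-0.477 to 0.052), in rods for Fosb (-0.563 to 0.38) and Atf3 (-0.759 to 0.0716), in cones for Fosb (-0.175 to 0.122), in the bipolar cells for Fosb (-1.06 to 0.329) and Jund (-0.467 to 0.661), in the amacrine cells for Fosl2 (-0.715 to 0.553) and Junb (-0.0859 to 0.237), and in Müller glia for Fos (-0.046 to 0.413), Fosb (-0.0942 to 0.192), Fosl2 (-0.54 to 0.166), Junb (-0.156 to 0.0363), Jund (-0.0913 to 0.176) and Atf3 (-0.13 to 0.14). Thinned to 1000 UMIs a cell, deeper cells gave higher shares with any of the 8 genes: 53.1% in rods, 69.9% in cones, 38.6% in the bipolar cells, 67.3% in the amacrine cells and 80.0% in Müller glia. The causes were not tested. Of 531 values for single members in Phase I ROP against control, 448 moved by less than the spread between mice and 0 changed sign.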

Other observations

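Horizontal cells, the interneurons that connect photoreceptors sideways, had few UMIs of the inducible AP-1 genes in the control, Phase I ROP and ω-6 groups. They were among the most deeply counted cells. The ω-3 mice gave only 1 such cell (23168 UMIs of all genes), without a UMI of Fos or Jun, which allows up to 159 CPM each. In the 13 horizontal cells of Phase I ROP mice (136310 UMIs of all genes) Fos was counted 4 times, 29.3 CPM (8 to 75.1, exact 95% Poisson interval), Junb 6 times and Jun once. Fosb, Fosl2, Atf3 and Maff were not counted, which allows up to 27.1 CPM each. In the 8 horizontal cells of the ω-6 mice Fos was at 9.27 CPM (0.235 to 51.6) and Jun at 18.5 (2.24 to 66.9). Jund was present at 271 CPM (191 to 374) in Phase I ROP, 278 (188 to 397) in the ω-6 mice and 303 (207 to 428) in the 9 control cells, with overlapping intervals. Low counts were not particular to horizontal cells. The 12 retinal pigment epithelium cells of Phase I ROP mice (26281 UMIs of all genes) held 1 UMI each of Fos and Fosb. The other members were not counted there, which allows up to 140 CPM each. These horizontal cells were in the same libraries as amacrine cells with Fos at 770 to 1148 CPM in the Phase I ROP mice (no TMM scaling). Bipolar cells of those mice were lower, with Fos at 55.5 to 91.7 CPM and Junb at 50.4 to 81.2 (no TMM scaling). The intervals of the horizontal cells for Fos and for Junb (44 CPM, 16.2 to 95.8) overlapped these bipolar ranges. The cells are few, the class was singled out after its values were seen, and no test was made.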
